A study of Mus musculus with 3 samples.

Results

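Conventional dendritic cells were taken from mouse bone marrow by a gate on raw unique molecular identifier (UMI) counts, and 56 cells out of 22376 kept cells met it. A cell was a member when its H2-Aa, H2-Ab1 and H2-Eb1 counts summed to at least 5, at least 2 of 7 dendritic genes (Flt3, Cd209a, Xcr1, Clec9a, Itgax, Zbtb46 and Batf3) were detected, Siglech was at most 1, and Cd79a and Ace were 0. The members were thus chosen by their own counts of these 13 genes, and those counts are given below as description with no test. The 3 libraries were 2 of the genotype Ep300-Znf384-V5-HA, called fusion below, and 1 wild-type library. All came from femur and tibia marrow of males aged 6 weeks, and each pooled 5000 live sorted marrow cells with 5000 live cells depleted of lineage-positive cells, after red cell lysis, for 10x Genomics single-cell RNA sequencing. The series concerns lineage change by ZNF384 fusion proteins in acute leukemia. The labels do not name the promoter that drives the fusion, and they do not say whether the libraries came from separate animals. The p-values therefore measure only the spread between these samples, which may be technical, and with 1 wild-type library the genotype cannot be told apart from that library.

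Conventional dendritic cells take up antigen, load peptides on class II major histocompatibility molecules and prime T cells. They arise in the marrow from Flt3-positive precursors and mature mostly in other tissues. Their cDC1 branch depends on the transcription factors IRF8, BATF3 and ID2, carries Xcr1 and Clec9a and cross-presents antigen on class I, while the cDC2 branch depends on IRF4 and KLF4, carries Sirpa and presents mainly on class II. Class II genes are switched on by the coactivator CIITA, which acts through promoter boxes read by RFX and NF-Y. Ly6c2-high classical monocytes are a separate lineage that can also gain class II and Cd209a.

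The promoters of 2 of the gate's class II genes are shown because class II counts carry most of the gate. The 80 bases before the start of each gene are given 5′ to 3′ on the gene's strand, from RefSeq on GRCm38.p6, with H2-Aa at chr17:34287824-34287903 on the minus strand and H2-Eb1 at chr17:34305787-34305866 on the plus strand. Capitals mark the letters ATTGG, the core of the Y box read by NF-Y, searched on both strands (CCAAT on the other strand).
H2-Aa: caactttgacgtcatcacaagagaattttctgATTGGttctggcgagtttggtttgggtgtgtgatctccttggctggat
H2-Eb1: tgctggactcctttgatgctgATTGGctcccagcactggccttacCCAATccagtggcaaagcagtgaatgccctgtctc
Of 32851 RefSeq promoters, 15.3% held these letters in the same 80 bases. The match is a description of the letters only.

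The libraries held 97192347 and 111836603 UMIs in fusion replicates 1 and 2 and 93262028 UMIs in wild type. The gate took 21 and 18 cells in the fusion replicates and 17 in wild type, with a median of 6801 and 7911 UMIs per member in fusion and 8370 in wild type. No barcode of a member was shared between libraries. A doublet caller marked 2 and 2 fusion members and 0 wild-type members. The targeted genes were thin in so few cells. Ep300 (ENSMUSG00000055024, chromosome 15), the acetyltransferase that gives the fusion its first part, had 19 and 12 UMIs in fusion members and 24 in wild-type members, and was not past the threshold (log2 fold change -0.60 ± 0.48 SE, edgeR quasi-likelihood test, Benjamini-Hochberg adjusted p = 0.982). Zfp384 (ENSMUSG00000038346, chromosome 6), the mouse gene for ZNF384, had 4 and 6 UMIs in fusion members and 6 in wild-type members and was too low to test. Ep300 was lower in both fusion libraries than in wild type by a margin short of the threshold, and Zfp384 overlapped. In all other kept cells Ep300 stood at 69.1 and 52.8 CPM (UMIs scaled to a common library total) in fusion against 86.1 CPM in wild type, and Zfp384 at 26.5 and 19.6 CPM against 15.5 CPM.

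The label was checked against its 4 markers. H2-Aa, the class II alpha chain, was detected in 21 of 21 and 18 of 18 fusion members and in 17 of 17 wild-type members. Cd209a, a C-type lectin, was detected in 12 and 6 fusion members and in 6 wild-type members. Xcr1, the cDC1 chemokine receptor, was detected in 1 and 0 fusion members and in 2 wild-type members. Itgax, which encodes CD11c, was detected in 0 and 2 fusion members and in 5 wild-type members, with 5 or 6 UMIs in the libraries that had any. The name therefore rests on class II together with Flt3 (17 and 12 fusion members, 12 wild-type members) and Batf3 (11 and 14 fusion members, 12 wild-type members), while CD11c itself was nearly absent. Just inside the class II threshold, 1 and 0 fusion members and 1 wild-type member had 5 to 9 class II UMIs. Just outside it, 0 and 2 fusion cells and 3 wild-type cells had 3 or 4 with the other conditions met. Another 23 and 18 fusion cells and 11 wild-type cells missed the gate only because 1 of the 7 dendritic genes was detected and not 2.

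Outside the gate's own genes, Cd74 and Ciita stood furthest above the rest of the marrow. Cd74, the class II invariant chain, was detected in all 56 members and was at least 99.0 times its CPM in all other kept cells in every library. Ciita, the class II coactivator, had 81 and 61 UMIs in fusion members and 45 in wild-type members, at least 97.4 times the rest in every library. Ckb, the brain-type creatine kinase, followed at 94.0 times. H2-DMb1, which helps to exchange peptides on class II, was at least 30.4 times the rest, and Ifi30, a lysosomal thiol reductase, at least 7.996 times. Naaa, an amidase enriched in cDC1, was at least 22.7 times and Id2 at least 16.4 times the rest. Cst3, cystatin C, was detected in all 56 members and was at least 14.7 times the rest. Ccr2, a monocyte and precursor chemokine receptor, was also at least 8.19 times the rest. The other genes of the first 15, Pid1, Olfm1, Rnase6, Cd180, the transcription factor Irf5 and Plekho1, lay between 7.72 and 21.5 times the rest. These ratios follow a gate built on class II and are given with no test. The rest pools all other kept cells, and single gates within it reached the level of the members for some of these genes. Id2 stood at 375 and 604 CPM in fusion and 896 CPM in wild-type members, and at 419 and 381 CPM in fusion and 416 CPM in wild-type T cells. Rnase6 stood at 496 and 387 CPM in fusion and 402 CPM in wild-type members, and at 731 and 763 CPM in fusion and 830 CPM in wild-type plasmacytoid cells. Of 10 T and NK markers, 9 had no UMI in any member, Cd3e and Trbc1 among them. The B cell list was not absent and summed to 368 and 326 CPM in fusion members and 381 CPM in wild-type members, nearly all of it Ighm with 62 and 48 UMIs in fusion and 59 in wild type. Of 13 macrophage markers, C1qa, C1qc, Mertk, Fcna and Cd5l were at 0, and the other 8 together had 19 and 22 UMIs in fusion members and 11 in wild-type members.

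The gated cells formed an Irf8-high and an Irf8-low set. With a line at 5 Irf8 UMIs, drawn after seeing the cells, 29 members lay above and 27 below, and of all members 1 had 3 or 4 UMIs and 1 had 5 to 7. The Irf8-high set held 9 and 10 fusion members (42.9% and 55.6%) and 10 wild-type members (58.8%), with a median of 20 and 25.5 Irf8 UMIs in fusion and 25.5 in wild type. The Irf8-low set held 12 and 8 fusion members and 7 wild-type members, with medians of 0 and 1.5 UMIs in fusion and 1 in wild type. Id2, the inhibitor of E proteins needed for cDC1, was detected in 25 of the 29 Irf8-high cells and in 3 of the 27 Irf8-low cells. Cd209a went the other way, in 3 Irf8-high and 21 Irf8-low cells, and so did Csf1r, the receptor for macrophage colony-stimulating factor, in 6 Irf8-high and 21 Irf8-low cells. In each library Id2 was found in more of the Irf8-high than of the Irf8-low cells, 7 of 9 against 0 of 12 and 8 of 10 against 1 of 8 in fusion, and 10 of 10 against 2 of 7 in wild type.

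**Figure D1:**
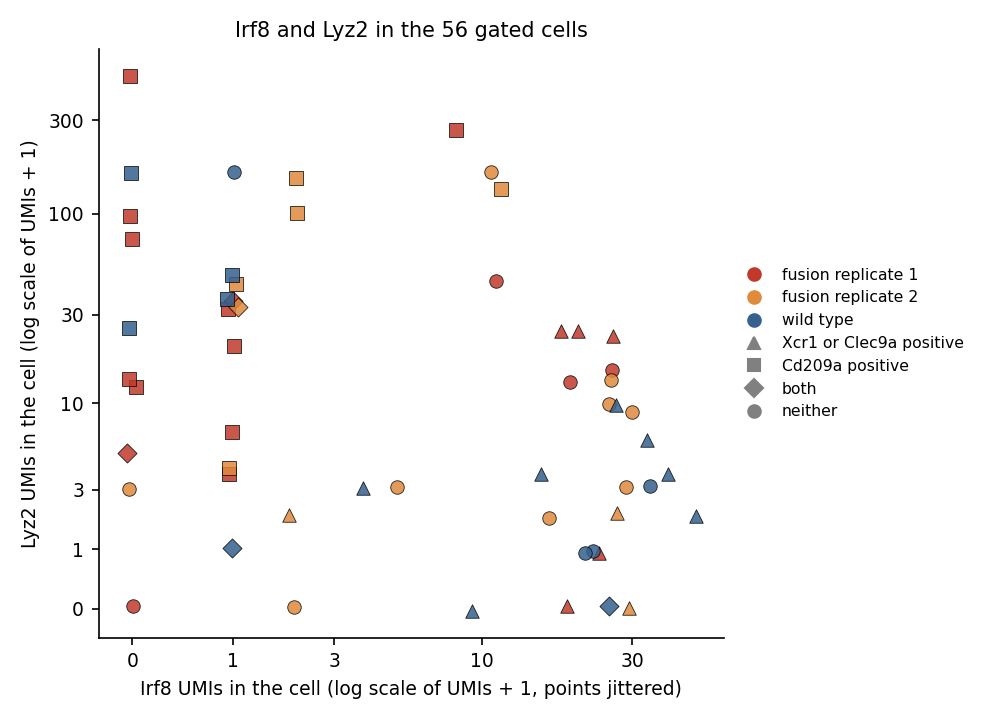
Each point is 1 of the 56 gated cells, with its Irf8 UMIs on the x axis and its Lyz2 UMIs on the y axis (both on a log scale of UMIs + 1, slightly jittered), coloured by library and shaped by detection of Xcr1 or Clec9a and of Cd209a. All but 2 points lie at 0 to 2 or at 8 and more Irf8 UMIs, and the Cd209a cells without Xcr1 and Clec9a have medians of 1 Irf8 UMI and 45 Lyz2 UMIs.

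Sub-gates on the branch markers followed the Irf8 split in part. Members with Xcr1 or Clec9a and no Cd209a numbered 5 and 3 in fusion and 7 in wild type, and members with Cd209a and neither of the others numbered 10 and 5 in fusion and 4 in wild type. Another 2 and 1 fusion members and 2 wild-type members had both, and 4 and 9 fusion members and 4 wild-type members had none of the 3 genes. Over the 3 libraries, the median Irf8 count was 1 UMI in the 5 members with both and 20 UMIs in the 17 members with none. Irf8 stood at 3097 and 2587 CPM in the Xcr1 or Clec9a cells of the fusion libraries and at 1891 CPM in those of wild type. In the Cd209a cells it stood at 104 and 443 CPM in fusion and at 65.6 CPM in wild type. Id2 had 42 and 38 UMIs in the fusion Xcr1 or Clec9a cells and 90 in the wild-type ones, but 0 and 2 UMIs in the fusion Cd209a cells and 1 in the wild-type ones. Wdfy4, which is required for cross-presentation, had 18 and 8 UMIs in the fusion Xcr1 or Clec9a cells and 40 in the wild-type ones, against 6 and 1 in fusion and 2 in wild-type Cd209a cells. Ppt1, a lysosomal thioesterase, Cst3, Naaa, Cbfa2t3 and the immunoproteasome subunit Psmb9 lay on the same side in all 3 libraries. All 6 cDC1-list genes with a mean of at least 300 CPM in either sub-gate were higher in the Xcr1 or Clec9a cells of every library. Over all such genes 82 of 499 were.

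The Cd209a cells carried the genes of phagocytes. Lyz2, lysozyme, stood at 8792 and 10615.5 CPM in the fusion Cd209a cells and 8885 CPM in the wild-type ones, against 2162 and 182 CPM in fusion and 319 CPM in wild-type Xcr1 or Clec9a cells. Cybb, the catalytic NADPH oxidase subunit, had 67 and 45 UMIs in the fusion Cd209a cells and 27 in the wild-type ones, against 0 and 3 UMIs in fusion and 1 in wild type for the Xcr1 or Clec9a cells. Zeb2, a repressor that opposes the cDC1 fate, was detected in all 10 and 5 fusion Cd209a cells and in all 4 wild-type ones. F13a1, Ifitm3, Ifitm2, Lamp1 and S100a4 were also higher in the Cd209a cells of all 3 libraries. Of the classical monocyte list, 5 genes reached a mean of 300 CPM in either sub-gate, and 3 were higher in the Cd209a cells of every library and 0 in the Xcr1 or Clec9a cells. Over all genes at that level, 92 of 499 were higher in the Cd209a cells of every library. Irf4, the factor of the cDC2 branch, had 1 and 0 UMIs in the fusion Cd209a cells and 1 in the wild-type ones. These values describe cells that were split by their own counts and carry no test.

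**Figure D2:**
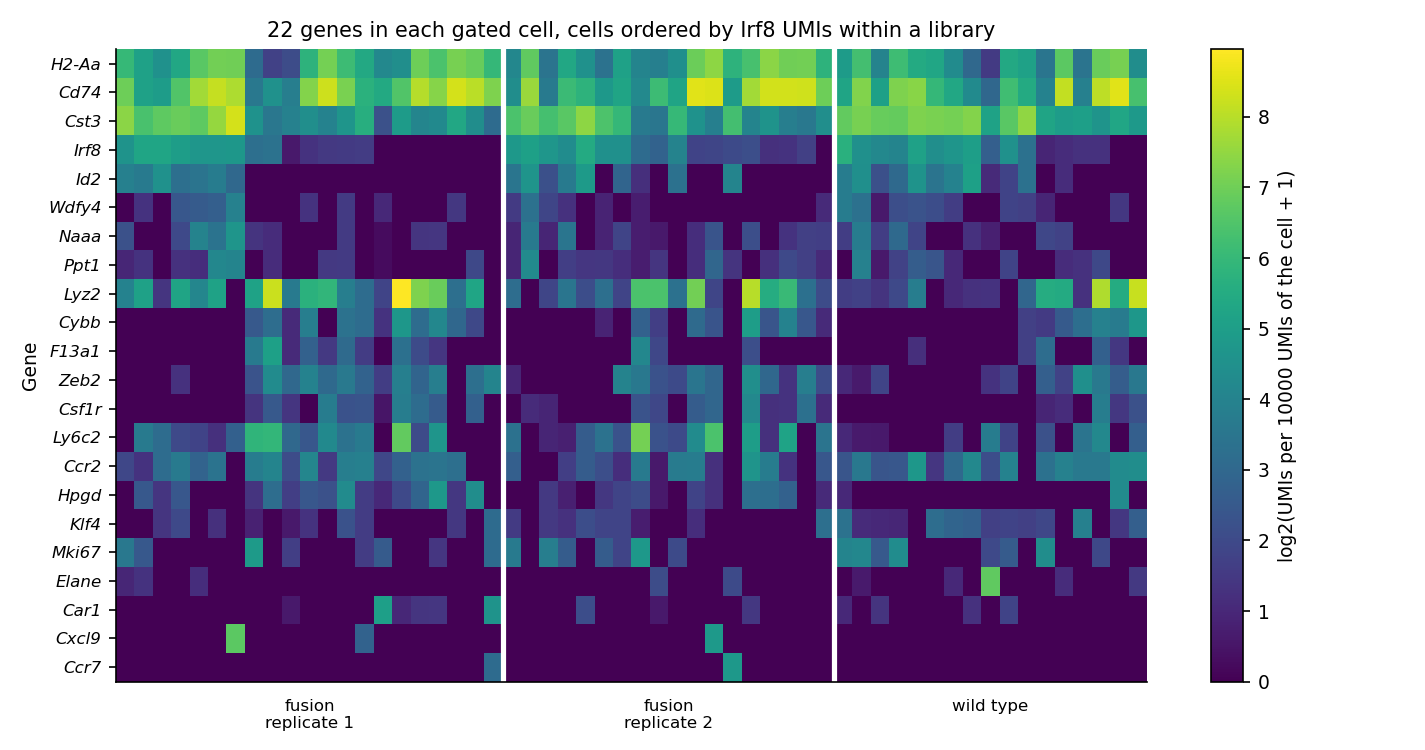
Columns are the 56 gated cells, with fusion replicates 1 and 2 on the left and wild type on the right, ordered by Irf8 UMIs within a library. Rows are genes, and colour is log2(UMIs per 10000 UMIs of the cell + 1). Id2 is seen in 25 of the 29 Irf8-high cells, Csf1r in 21 of the 27 Irf8-low cells, and Cxcl9 in 3 cells in all.

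The share of gated cells among kept cells had overlapping intervals in the 3 libraries. They made up 0.279% (95% Clopper-Pearson interval 0.173% to 0.426%) and 0.250% (0.148% to 0.394%) of the fusion libraries and 0.223% (0.130% to 0.357%) of the wild-type library, a ratio of 1.18. An exact permutation of the 3 libraries, two-sided, gave p = 0.667, where 0.333 is the smallest p possible. Plasmacytoid dendritic cells, gated on Siglech and Bst2, made up 0.730% and 1.12% of the fusion libraries and 1.70% of wild type, with both fusion intervals below the wild-type one (exact permutation p = 0.333). Conventional cells were 27.6% and 18.2% of both dendritic types together in fusion and 11.6% in wild type, with an exact permutation p of 0.667. The erythroid gate held 29.4% and 30.1% of fusion cells against 13.8% of wild-type cells, and outside that gate the ratio for conventional dendritic cells was 1.45. Intervals cover counting error only.

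Within the gate, the Xcr1 or Clec9a sub-gate held 23.8% (8.22% to 47.2%) and 16.7% (3.58% to 41.4%) of fusion members and 41.2% (18.4% to 67.1%) of wild-type members. The ratio was 0.491 and the intervals overlap (exact permutation p = 0.333, the smallest possible). This sub-gate is not the Irf8-high set, which held 42.9% and 55.6% of fusion members and 58.8% of wild-type members. A single Clec9a UMI was enough to enter it. In wild type such a cell held 291 UMIs of the granule gene Elane. In fusion replicate 2 such a cell had 2 Irf8 and 63 Ly6c2 UMIs. Of the 16 genes of the cDC1 list, 8 were high enough to test and 0 were called in the edgeR quasi-likelihood test (3 at an unadjusted p under 0.05). All 8 lay below wild type in both fusion libraries, where 34.0% of the 3935 tested genes did. The list summed to 2216 and 2938 CPM in fusion and 3906 CPM in wild type, and the median log2 fold change of its tested genes was -0.62 against 0.02 for all genes tested.

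Members with the traits of classical monocytes made up a larger share of both fusion libraries. The conditions of a classical monocyte gate (at least 2 UMIs each of Csf1r and Ly6c2, with no Siglech or Cd79a) were also met by 9 of 21 and 5 of 18 fusion members, 42.9% (21.8% to 66.0%) and 27.8% (9.69% to 53.5%), and by 2 of 17 wild-type members, 11.8% (1.46% to 36.4%). The intervals overlap, and the exact permutation p of 0.333 is the smallest possible. Of these 16 members, 12 were Irf8-low. Without every member that met another gate, 10 and 12 fusion members and 14 wild-type members were left and the ratio of shares turned to 0.814 (exact permutation p = 0.667). The classical monocyte list summed to 3679 and 4394 CPM in fusion members and 2223 CPM in wild-type members, with Vcan at 0 among its 10 genes. Without Ly6c2, which is one of the conditions, it summed to 2072 and 2096 CPM in fusion members and 1863 CPM in wild-type members. Csf1r, also one of the conditions, stays in that sum, with 45 and 39 UMIs in fusion members and 14 in wild-type members. Of its 7 tested genes, 4 lay above wild type in both fusion libraries, Ly6c2 and Csf1r among them, and 2 below.

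Class II counts of monocytes around the gate were more frequent in both fusion libraries than in the wild-type library. Among all kept cells that met the monocyte conditions, 49 of 337 and 35 of 399 fusion cells had at least 5 class II UMIs, 14.5% (10.95% to 18.8%) and 8.77% (6.19% to 11.99%), against 5 of 525 wild-type cells, 0.952% (0.310% to 2.21%). The fusion intervals lie above the wild-type interval and the exact permutation p was 0.333, the smallest possible, although the fusion cells were shallower, at a median of 11244 and 16268 UMIs against 18750 in wild type. T cells, which lack class II transcription in the mouse and so show free RNA, had such counts in 1.37% and 0% of fusion cells (1 of 73 and 0 of 61) and 3.33% of wild-type cells (4 of 120), at medians of 2682 and 4235 UMIs in fusion and 4778 in wild type. With every cell thinned to 2000 UMIs, which kept 325 of 337 and 397 of 399 fusion cells and 524 of 525 wild-type cells, a class II UMI was left in 16.6% and 10.6% of the fusion cells meeting the monocyte conditions and in 2.67% of the wild-type ones. It was left in 6.45% and 1.64% of thinned fusion T cells and 6.96% of wild-type ones, so the wild-type monocytes were not above that background. Few of these cells entered the dendritic gate, 9 of 49 and 5 of 35 in fusion and 2 of 5 in wild type.

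**Figure D3:**
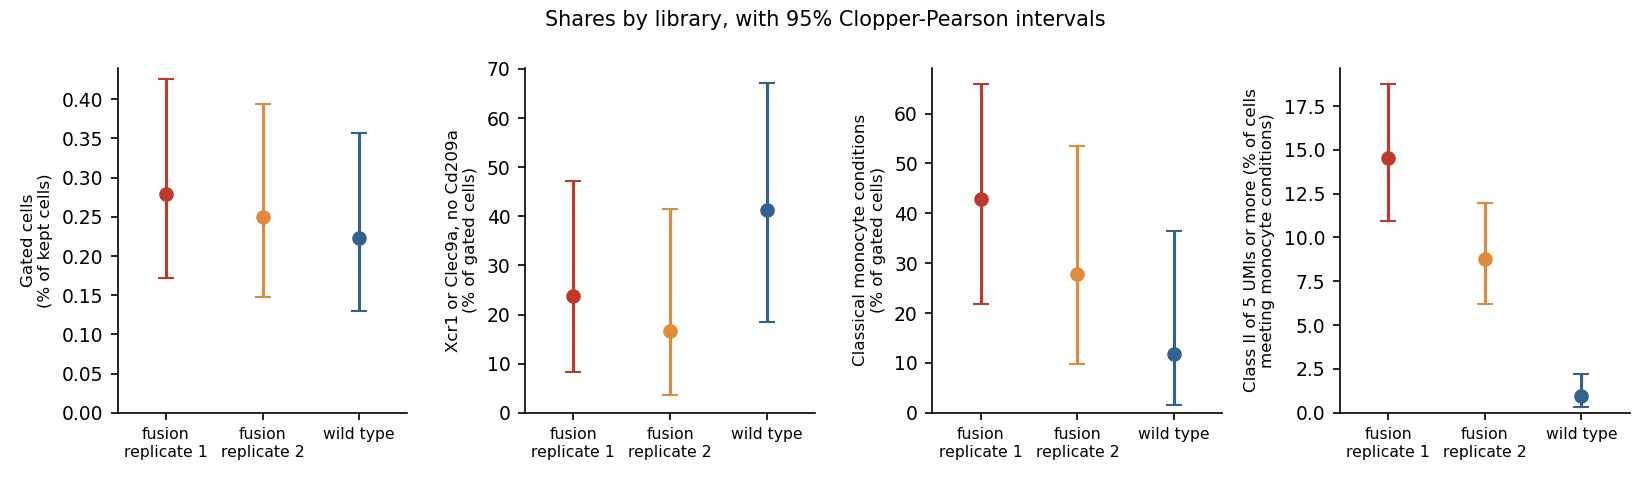
Each panel plots a share in percent for fusion replicates 1 and 2 on the left and wild type on the right, with exact 95% intervals. From left to right are gated cells among kept cells, Xcr1 or Clec9a cells without Cd209a among gated cells, cells meeting classical monocyte conditions among gated cells, and cells with at least 5 class II UMIs among all cells meeting those conditions. The fusion and wild-type intervals are apart in the last panel and overlap in the others.

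Gene levels were then compared between genotypes on counts summed over the members of each library. Of 3935 genes tested (gate genes left out), 33 were past the threshold in the edgeR quasi-likelihood test (Benjamini-Hochberg adjusted p under 0.05), which is 0.839%. With equal cell numbers, 17 per library, 0 of 3425 genes were called (110 at an unadjusted p under 0.05). A stricter filter on cells dropped 1 and 2 fusion members and 0 wild-type members, and 2 of 3846 genes were then called. Of the 33 20 were higher in fusion (0.508%) and 13 lower (0.330%). Most of these calls rested on very few cells: for 17 of the 33, over 50% of the UMIs of the genotype where the gene was higher came from 1 cell. The granule genes show it. Elane, neutrophil elastase, had 3 and 8 UMIs in fusion members and 295 in wild-type members (log2 fold change -5.67 ± 0.48 SE, edgeR adjusted p = 7.58e-28), and 291 of the 295 sat in 1 wild-type cell. That cell had 27133 UMIs, 9 class II UMIs and also 374 of the 390 wild-type UMIs of Prtn3, 161 of the 175 of Mpo, 107 of the 109 of Ctsg and all 61 of Ms4a3. A gate at 10 class II UMIs leaves out this cell and 1 cell of fusion replicate 1. Then 19 of 3404 genes were called, while Ctsg turned to a log2 fold change of 3.21.

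Single fusion cells gave the tops of the other direction. Cxcl9, a chemokine induced by interferon gamma, had 75 and 20 UMIs in fusion members and 0 in wild-type members, at least 16.2-fold higher against a floor of 3 UMIs, with 72 UMIs in 1 cell of fusion replicate 1 and all 20 of fusion replicate 2 in 1 cell. Ccl5, a chemokine of activated cells, had 2 and 65 UMIs in fusion and 0 in wild type, and 64 of them sat in 1 cell of fusion replicate 2. The same cell held 17 UMIs of Ccr7, the receptor that guides dendritic cells to lymph nodes, 20 of Fscn1 and 17 of Traf1. The mature migratory list had 6 tested genes, of which 0 were called in the edgeR test (4 at an unadjusted p under 0.05) and 5 lay above wild type in both fusion libraries, where 32.8% of tested genes did. The list summed to 338 and 744 CPM in fusion and 147 CPM in wild type, and that cell held 95 of its 121 UMIs in fusion replicate 2. Without the highest cell of each library it summed to 270 and 166 CPM in fusion and 134 CPM in wild type. Car1 and Car2, the carbonic anhydrases of red cell precursors, had 157 and 131 UMIs in fusion replicate 1, of which 150 and 115 sat in 1 cell of 47043 UMIs that the doublet caller had marked. The erythroid list summed to 1663 and 79.9 CPM in fusion members and 109 CPM in wild-type members. Without the predicted doublets neither gene was high enough to test.

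**Figure D4:**
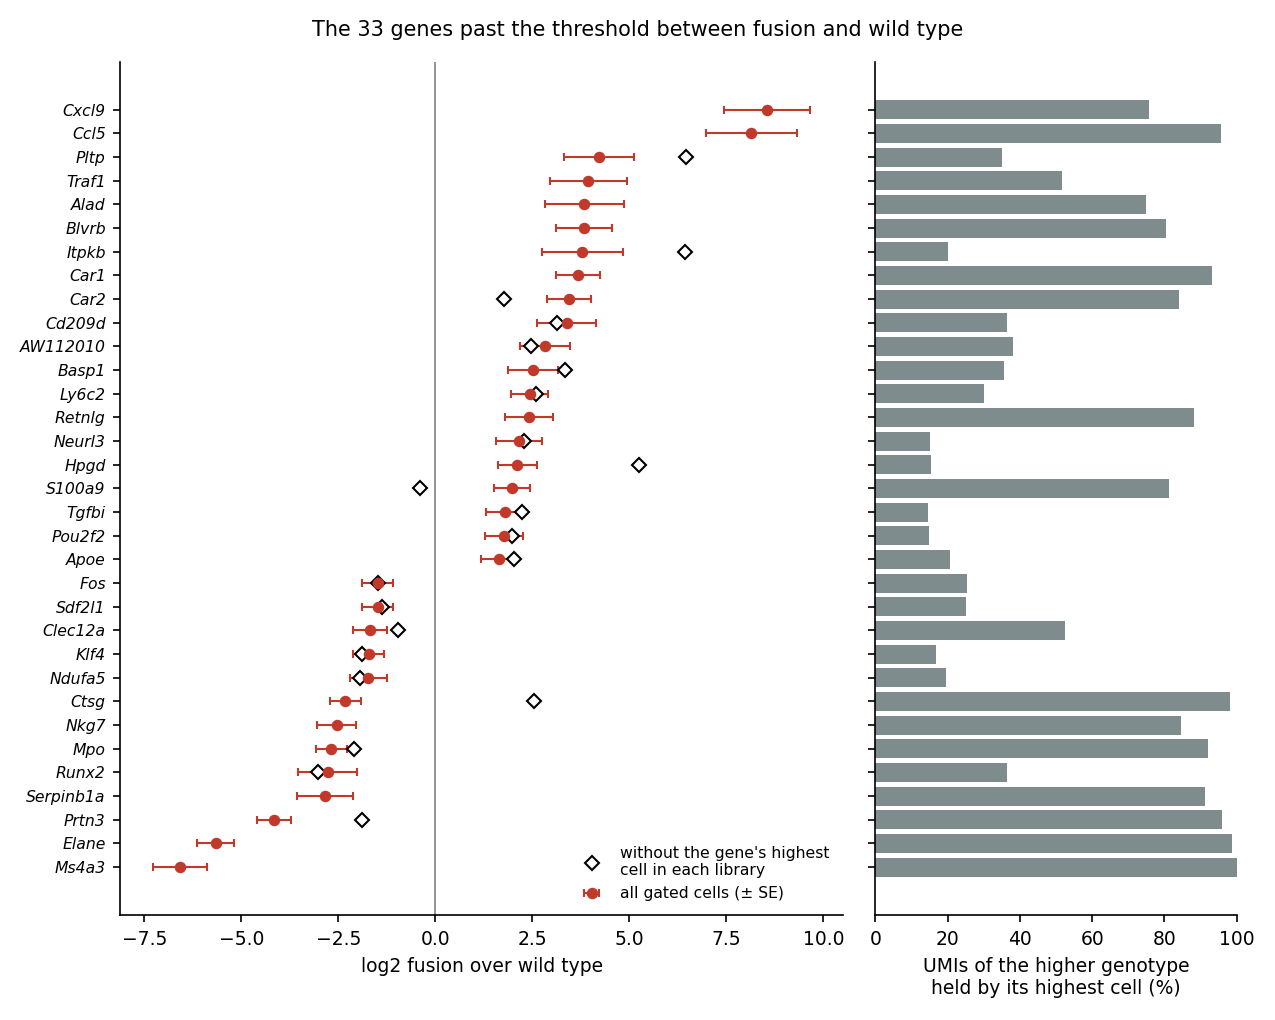
Left, log2 fold change of fusion over wild type for the 33 called genes, with all gated cells (filled points, ± SE) and without each gene's highest cell in each library (open diamonds, where the gene was still tested). Right, the share of the UMIs of the higher genotype that its highest cell held. Elane, Ms4a3, Ctsg and Ccl5 have bars near 100%, and Hpgd, Klf4, Pou2f2 and Tgfbi have bars under 20%.

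To show which differences were spread over cells, each gene's highest cell was left out of every library, a comparison chosen after seeing the data. Then 2786 genes were tested and 12 were past the edgeR threshold, 0.431%, with 7 higher in fusion and 5 lower. Of these 12, 8 had also been called over all members. The cell left out is chosen by its own value, so a call gained or strengthened this way can follow from the removal. Hpgd, the enzyme that inactivates prostaglandins, had 72 and 32 UMIs in 16 of 21 and 12 of 18 fusion members and 12 UMIs in 2 of 17 wild-type members. Its levels were 416 and 217 CPM in fusion and 73.1 CPM in wild type, and 11 of the 12 wild-type UMIs sat in 1 cell. The log2 fold change was 2.11 ± 0.50 SE over all members (edgeR adjusted p = 0.00492). Without the top cells 82 fusion UMIs stood against 1 in wild type, a ratio of 42.02 with a counting interval of 7.33 to 1680 (edgeR adjusted p = 3.31e-08). The removal took 11 of the 12 wild-type UMIs of Hpgd, but 16 of 72 and 6 of 32 in fusion. The larger ratio and smaller p are therefore no added support for the difference. Hpgd was found in no T cell of any library. After thinning it was detected in 55.0% and 22.2% of fusion members and 5.88% of wild-type members. Among members that did not meet the monocyte conditions, 7 of 12 and 7 of 13 fusion cells had Hpgd against 2 of 15 wild-type cells. Among the members outside every other gate its log2 fold change was 1.48, not past the edgeR threshold (adjusted p = 0.243).

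Ly6c2, a surface antigen of classical monocytes, had 314 and 374 UMIs in fusion members and 66 in wild-type members. Both fusion libraries lay above wild type. Its log2 fold change was 2.43 ± 0.48 SE (edgeR adjusted p = 0.000159), and 2.60 without the top cells (adjusted p = 1.48e-05). Most of it lay in the members that met the monocyte conditions, which held 289 and 310 UMIs in fusion and 15 in wild type. The other members held 25 and 64 UMIs in fusion and 51 in wild type, and outside every other gate the log2 fold change was 0.51 (edgeR adjusted p = 0.971). Ly6c2 is itself one of the genes of the monocyte conditions. In cells of the classical monocyte gate it stood at 3083 and 2749 CPM in fusion and 1281 CPM in wild type.

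Some other genes of monocytes and macrophages lay on the same side as Ly6c2, while Ccr2 (727 and 536 CPM in fusion, 950 CPM in wild type) lay on the other without passing the threshold. Csf1r had 45 and 39 UMIs in fusion members and 14 in wild-type members, not past the threshold over all members (log2 1.61, edgeR adjusted p = 0.0689). Without the top cells 32 and 29 UMIs stood in fusion against 5 in wild type, where the cell left out held 9 of the 14. Tgfbi, a matrix protein of monocytes, had 40 and 29 UMIs in fusion and 10 in wild type (log2 1.80, edgeR adjusted p = 0.0386). Apoe, the lipoprotein of macrophages, had 49 and 77 UMIs in fusion and 21 in wild type (log2 1.64, edgeR adjusted p = 0.0445), in 6 and 7 fusion members and 5 wild-type members. The 2 predicted doublets of fusion replicate 1 held 11 and 23 of its Apoe UMIs, and 1 predicted doublet of fusion replicate 2 held 26. Without predicted doublets the log2 fold change of Apoe was 1.11 (edgeR adjusted p = 0.445). Pou2f2, a B cell and monocyte transcription factor, had 44 and 43 UMIs in 15 and 14 fusion members and 13 UMIs in 5 wild-type members (log2 1.77, edgeR adjusted p = 0.0347). Ctsa, a lysosomal protease, had 24 and 24 UMIs in fusion and 6 in wild type (edgeR adjusted p = 0.0730). Of Tgfbi, Apoe, Pou2f2, Csf1r and Ctsa, none was past the threshold among members outside every other gate, where Csf1r and Apoe were too low to test. Whether the larger share of members with monocyte conditions accounts for these genes was not tested.

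Of the genes lower in fusion members, Klf4, Fos and Ndufa5 were past the threshold both over all members and without the top cells. Outside every other gate none of the 3 was past it, with log2 fold changes of -1.27, -0.64 and -1.70 (edgeR adjusted p = 0.315, 0.971 and 0.221). Without predicted doublets Ndufa5 was past it, while Klf4 (-1.43, edgeR adjusted p = 0.0635) and Fos (-1.07, adjusted p = 0.364) were not. Klf4, a factor of the cDC2 branch and of monocytes, had 12 and 23 UMIs in 10 and 9 fusion members and 60 UMIs in 14 wild-type members (log2 -1.72 ± 0.40 SE, edgeR adjusted p = 0.00485, and -1.90 without the top cells, adjusted p = 0.00161). The fusion libraries lay at 69.3 and 156 CPM, both below the 366 CPM of wild type, but after thinning Klf4 was detected in 15% and 22.2% of fusion members and 17.6% of wild-type members, so the share of cells gives no order. Klf4 was not confined to Irf8-low cells. Without thinning it was detected in 4 of 9 and 7 of 10 Irf8-high fusion members and 9 of 10 wild-type ones. Among Irf8-low members it was detected in 6 of 12 and 2 of 8 in fusion and 5 of 7 in wild type. Fos, of the AP-1 complex, had 26 and 18 UMIs in fusion and 63 in wild type (log2 -1.48, edgeR adjusted p = 0.0326). Ndufa5, a subunit of respiratory complex I, had 10 and 11 UMIs in fusion and 36 in wild type (log2 -1.73, edgeR adjusted p = 0.0347). Sdf2l1, an endoplasmic reticulum chaperone, had 28 and 22 UMIs in fusion and 72 in wild type (log2 -1.49, edgeR adjusted p = 0.0325, and 0.0754 without the top cells). Runx2, which marks plasmacytoid cells, had 1 and 5 UMIs in fusion and 22 in wild type over 9 cells (log2 -2.78, edgeR adjusted p = 0.0349, and 0.775 without the top cells). In classical monocytes Klf4 lay at 99.0 and 87.5 CPM in fusion and 204 CPM in wild type, and Fos at 256 and 191 CPM in fusion and 425 CPM in wild type. Ndufa5 lay there at 76.7 and 160 CPM in fusion and 167 CPM in wild type. In T cells it lay at 58.1 and 125 CPM in fusion and 111 CPM in wild type. Fusion replicate 1 had the lowest Ndufa5 level of the libraries in every other gate.

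**Figure D5:**
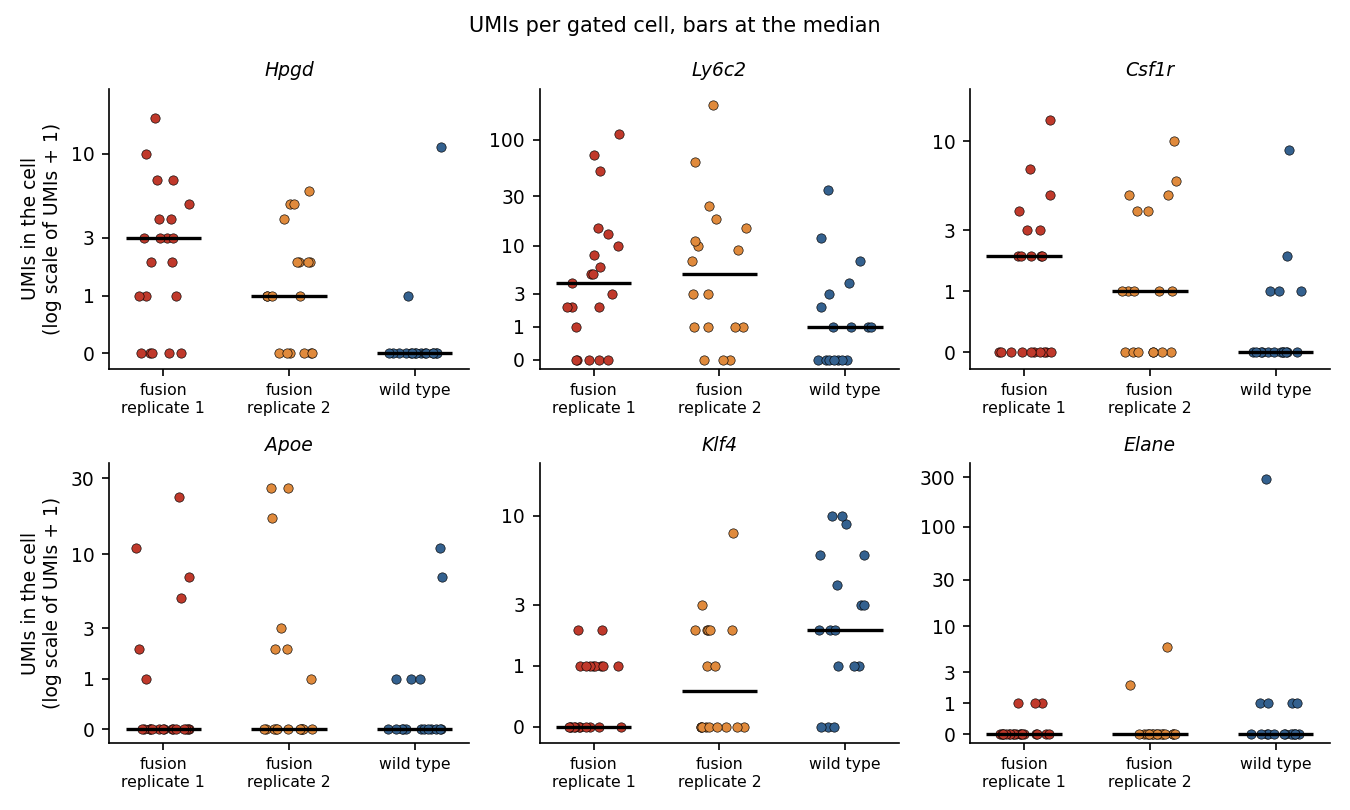
UMIs of 6 genes in each gated cell, with fusion replicates 1 and 2 left of wild type, on a log scale of UMIs + 1, and bars at the median. Hpgd points lie above 0 in 16 and 12 fusion cells and in 2 wild-type cells, Klf4 medians are lower in both fusion libraries, and 1 wild-type cell stands at 291 Elane UMIs.

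Among the called genes not yet described, Pltp, a phospholipid transfer protein, had 9 and 31 UMIs in 3 and 7 fusion members and 1 UMI in wild type, a ratio of 20.5 with a counting interval of 3.47 to 830 (edgeR adjusted p = 0.000800). Itpkb, an inositol phosphate kinase, had 14 and 16 UMIs, in 9 and 9 fusion members, and 1 UMI in wild type (ratio 15.4, interval 2.56 to 627, edgeR adjusted p = 0.0386). Cd209d, a lectin of the Cd209a family, had 33 and 11 UMIs in fusion members and 2 in wild-type members (ratio 11.3, interval 2.94 to 96.0). Neurl3, a ubiquitin ligase, had 26 and 27 UMIs in 13 and 9 fusion members and 6 UMIs in 5 wild-type members (log2 2.16, edgeR adjusted p = 0.0347). Without the top cells these 4 genes were not past the edgeR threshold, with folds of 6.46, 6.44, 3.15 and 2.30 on the log2 scale and fewer UMIs behind them. Those of Pltp and Itpkb then stand against 0 wild-type UMIs and are no measure of size. Itpkb was also higher in both fusion libraries in every other gate, at 62.8 and 47.1 CPM in fusion and 20.7 CPM in wild-type classical monocytes. Neurl3 stood at 72.5 and 45.1 CPM in fusion and 16.0 CPM in wild-type classical monocytes. In basophils it stood at 152 and 118 CPM in fusion and 158 CPM in wild type. The other called genes named by rule were AW112010 (7 and 48 UMIs in fusion, 4 in wild type), Basp1 (15 and 30 in fusion, 4 in wild type) and Alad (28 and 4 in fusion, 1 in wild type), which were higher in fusion, and Nkg7 (11 and 2 in fusion, 39 in wild type) and Serpinb1a (1 and 5 in fusion, 23 in wild type), which were lower. In fusion replicate 1, 24 of the 28 Alad UMIs sat in 1 cell. In wild type, 1 cell held 33 of the 39 Nkg7 UMIs, and 1 cell held 21 of the 23 Serpinb1a UMIs. Without the top cells Alad, Nkg7 and Serpinb1a were too low to test. Basp1, a membrane-bound signalling protein, was past the edgeR threshold outside every other gate too (log2 3.18, adjusted p = 6.87e-05). Without the top cells it was not (log2 3.33, edgeR adjusted p = 0.620). Its highest cells held 8 of the 15 and 16 of the 30 UMIs in fusion and 3 of the 4 in wild type.

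No antigen presentation gene was past the threshold between genotypes. Of 12 tested genes of class II presentation, 0 were called in the edgeR test (1 at an unadjusted p under 0.05), 8 lay above wild type in both fusion libraries and 1 below, and their median log2 fold change was 0.43 against 0.02 for all genes. Cd74 had 2062 and 1978 UMIs in fusion members and 1705 in wild-type members. Of the gate genes, which carry no test, H2-Aa had 947 and 909 UMIs in fusion and 755 in wild type. Of 16 class I presentation genes 0 were called (1 at an unadjusted p under 0.05), with a median of -0.09, and of 16 interferon response genes 0 were called (2 at an unadjusted p under 0.05), with a median of 0.54. Costimulation could hardly be read, as 1 of its 14 genes was high enough to test. Of 21 dendritic transcription factors tested, Klf4 and Runx2 were called lower and 0 higher, where 0.330% and 0.508% of all tested genes were, and 11 lay above wild type in both fusion libraries and 7 below, with a median of 0.34. Of 12 pattern recognition genes, Clec12a was called lower, with 22 of its 42 wild-type UMIs in 1 cell. Of 10 cDC2 genes, Klf4 and Clec12a were called lower and 6 lay above wild type in both fusion libraries. Klf4, though on this list, was detected in 9 of the 10 Irf8-high wild-type members.

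Mki67, a protein of cycling nuclei, was detected in 8 and 7 fusion members (38.1% and 38.9%) and 8 wild-type members (47.1%), and in 19.2% and 22.95% of fusion and 29.2% of wild-type T cells. The T cells were shallower, at medians of 2682 and 4235 UMIs in fusion and 4778 in wild type. Members had medians of 6801 and 7911 UMIs in fusion and 8370 in wild type, so their shares and those of T cells are not at like depth. At least 5 Mki67 UMIs stood in 3 and 5 fusion members and 6 wild-type members. Of 21 tested genes of the G2 and M phases, 0 were called in the edgeR test (6 at an unadjusted p under 0.05), 1 lay above wild type in both fusion libraries and 16 below, with a median log2 fold change of -0.73, where 32.8% and 34.0% of all tested genes lay above and below. The list summed to 3602 and 4818 CPM in fusion members and 6571 CPM in wild-type members. In T cells it summed to 1917 and 1988 CPM in fusion and 4640 CPM in wild type. Of 15 S phase genes, 0 were called (2 at an unadjusted p under 0.05) and 10 lay below in both fusion libraries, with a median of -0.41. Among all genes tested, 251 had an unadjusted p under 0.05, and DESeq2 called 2 genes, Elane and Ly6c2.

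The fusion effect in the members was then set against that in the nearest gates, in edgeR fits with the library as a block. Against plasmacytoid dendritic cells, 28 of 6758 genes differed in their effect (0.414%). Hpgd was at 389 and 210 CPM in fusion and 70.4 CPM in wild-type conventional cells, while plasmacytoid cells had 0 and 1.26 CPM in fusion and 6.61 CPM in wild type (difference of the effects 4.70 ± 1.20 SE, log2, edgeR adjusted p = 0.0332). The plasmacytoid values are very low. In classical monocytes Hpgd was also higher in both fusion libraries, at 80.2 and 23.8 CPM against 13.1 CPM in wild type. Runx2 stood at 5.4 and 32.8 CPM in fusion and 129 CPM in wild-type conventional cells, against 719 and 776 CPM in fusion and 791 CPM in wild-type plasmacytoid cells (difference -2.75 ± 0.67 SE, edgeR adjusted p = 0.0173). Against classical monocytes, 17 of 10943 genes differed (0.155%). Cd74 lay at 10172 and 11562 CPM in fusion and 9187 CPM in wild-type conventional cells, but at 630 and 409 CPM in fusion and 26.4 CPM in wild-type monocytes (difference -4.02 ± 0.73 SE, edgeR adjusted p = 5.42e-05). Ciita had the same form, with 400 and 357 CPM in fusion and 242 CPM in wild type for conventional cells and 15.04 and 11.6 CPM in fusion and 0.671 CPM in wild type for monocytes (difference -3.59 ± 0.62 SE, edgeR adjusted p = 2.16e-05). The gate requires class II UMIs of conventional cells, and the monocyte gate does not. Cd74 and Ciita belong to class II presentation, so this selection bears on their values in conventional cells of both genotypes. Their differences of effect therefore cannot be told apart from the gates. Without the library block, 1 gene was past the threshold against plasmacytoid cells and 5 against monocytes.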

How the data were processed

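The deposited matrices hold raw UMI counts per gene and barcode. The submitters' processing notes list GRCm38, Cell Ranger 5.0.1 and bcl2fastq 2.20.0.422, and cellranger 5.0.0 stands in the file headers. Cells needed 1000 UMIs, 400 genes and a mitochondrial share of 10% or less, and doublets stayed in. Predicted doublets came from scrublet in scanpy 1.11.5 (expected rate 0.06).

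Counts were summed per library over the gated cells and compared by genotype with edgeR's quasi-likelihood test (version 4.0.16, TMM, filterByExpr). Only the 2 fusion libraries give a spread (1 residual df), and wild type is assumed to vary like them. CPM of members uses TMM library sizes, except list sums, sub-gate values and other gates, which are plain CPM. On simulated counts of the genotype comparison (3915 genes), 36.5% of 200 genes changed 4-fold were called, with 2 false calls. DESeq2 1.42.0 was an alternative.

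The members, gene lists and gates were chosen with earlier results of these data known. Genes are named where the adjusted p is under 0.05, the mean is at least 30 CPM and both fusion libraries lie on the same side, up to 12 per direction by fold change (5 for the tests between gates), with free places filled by size, predicted, immune receptor, haemoglobin, ribosomal, mitochondrial and sex-linked genes and genes under 5% of their level in another gate left out, and with members of the lists and the 15 genes furthest above the rest of the marrow. Genes called only without top cells and the sub-gate genes were named after their values were seen. Chromosomes come from RefSeq, matched by symbol. Floors are 3 UMIs over a group.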

Additional observations from a re-analysis of the deposited data

Results flagged for a closer look

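Of the 28 genes whose fusion effect differed between conventional and plasmacytoid dendritic cells in a test of the difference itself (edgeR, log2 units, conventional minus plasmacytoid), 10 are named here, up to 5 per direction. The difference was 4.89 for Pltp, 4.70 for Hpgd, 4.11 for Blvrb, 4.10 for Lgals3bp and 3.06 for Cd209d. It was -3.71 for Prtn3, -3.17 for Prss57, -2.75 for Runx2, -2.29 for Elane and -2.27 for Ctsg. The granule genes Prtn3, Elane and Ctsg take these values from the 1 wild-type cell described above, and 49 of the 57 UMIs of Blvrb in fusion replicate 1 sat in the marked doublet.

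Of the 17 genes whose fusion effect differed between conventional dendritic cells and classical monocytes, 8 are named by the same rule, some of them also above. The difference was 15.5 for Cxcl9, 3.83 for Blvrb and 2.13 for F13a1. It was -5.23 for Elane, -4.92 for Ms4a3, -4.02 for Cd74, -3.74 for Prtn3 and -3.59 for Ciita. The value for Cxcl9 rests on a wild-type sum of 0 and is no measure of size. Those for Cd74 and Ciita cannot be told apart from the class II condition of the conventional gate. F13a1, a coagulation factor of monocytes, stood at 331 and 193 CPM in fusion and 86.2 CPM in wild-type conventional cells, and at 570 and 486 CPM in fusion and 769 CPM in wild-type monocytes. Its highest fusion members, with 28 UMIs in fusion replicate 1 and 26 in fusion replicate 2, met the monocyte conditions. Among fusion members that did not meet them, only a cell of fusion replicate 1 had F13a1, with 4 UMIs. The highest wild-type member, with 9 UMIs, did not meet them.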

How the results depend on the processing

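The ratio of conventional dendritic cell shares was 1.18 and lay between 1.03 and 1.45 under 5 of the 7 other settings run, but turned to 0.963 when the gate was applied to cells thinned to 2000 UMIs, which left 7 and 4 fusion cells and 6 wild-type cells, and to 0.814 for members outside every other gate. Without either fusion replicate it lay between 1.12 and 1.25. The ratio of Xcr1 or Clec9a shares stayed under 1, between 0.455 and 0.844 over 6 settings and between 0.405 and 0.578 without either fusion replicate. With 3 dendritic genes, though, fusion replicate 1 was at 50% against 44.4% in wild type, and outside every other gate both were at 50%. Over all members 33 of 3935 tested genes were called, and the number tested changed with the setting. With the stricter cell filter 2 of 3846 were called, with the thinned gate 3 of 916, and with 10 class II UMIs 19 of 3404. With 3 dendritic genes 0 of 2225 were called (76 at an unadjusted p under 0.05). With equal cell numbers 0 of 3425 were (110 at an unadjusted p under 0.05). In Cd209a cells 4 of 816 were called, outside every other gate 14 of 2134, and without top cells 12 of 2786. With members thinned 3 of 668 were, and DESeq2 called 2 of 3935 (21 at an unadjusted p under 0.05). Those 2 settings with 0 calls were edgeR fits. Doublet removal gave 29 of 2970 and cells without other lineage markers 28 of 1738. Xcr1 or Clec9a cells gave 37 of 683, another scaling 35 of 3935 and no filter 27 of 11415. The tests between gates gave 17 of 13962 without a filter and 1 of 6758 without the library block for plasmacytoid cells. For monocytes 5 of 10943 were past the threshold without the block. Of the named genes, Prtn3 turned to 0.28 and Mpo to 0.79 with 10 class II UMIs, and Ctsg to 3.21 there, 2.499 in Cd209a cells and 2.55 without top cells. Settings outside every other gate, without top cells, with members thinned and the list sums without Ly6c2 or without a cell were chosen after seeing the data. The cause of the other changes was not tested, apart from fewer cells and genes in the smaller sets. No paired analysis was run, as there were 2 fusion libraries and 1 wild-type library. Gene calls without a fusion replicate were not run, since 1 library against 1 allows no test. With 17 to 21 cells per library, 3935 genes were high enough to test.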
